A study of Mus musculus with 21 samples.

Results

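Germ layer formation was followed here in embryoid bodies of mouse embryonic stem cells (ESCs) that lacked Rinf, from day 3 to day 6 after the cells were set to differentiate. Rinf is encoded by Cxxc5 and carries a CXXC zinc finger, which recognises CpG without methylation. The groups compared were Rinf knockout embryoid bodies at day 3 and at day 6, with wild type embryoid bodies of the same days as the reference, 2 libraries in each group. All came from V6.5 ESCs of a mixed 129/C57BL/6 background at passages 15 to 18, grown in serum with LIF and then differentiated in hanging drops. Per the series' design text, 2 independent lines of each genotype were used. The genes are those with a mean of at least 1 FPKM (read fragments of a transcript, scaled to its length and to the depth of the library) over the 4 knockout libraries of days 3 and 6, which 12413 of the 24458 genes in the deposited table reached.

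Embryoid bodies are aggregates in which ESCs leave the pluripotent state once LIF is withdrawn, and they run through steps that resemble the early embryo. Cells first pass from the naive to a formative, epiblast-like state, and a part of them then expresses the genes of the primitive streak, the site of gastrulation, under Wnt, Nodal and BMP signals. Streak cells give rise to mesoderm and definitive endoderm, losing epithelial junctions and E-cadherin as they do so, while epiblast cells that stay outside the streak take the neural or surface ectoderm path.

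Cxxc5 itself checks the labels. Its level was 5.05 and 7.08 FPKM at day 3 and 9.38 and 11.9 FPKM at day 6 in the knockout. In wild type it was 30.9 and 36.1 FPKM at day 3 and 39.8 and 52.3 FPKM at day 6, so all 4 knockout libraries lay below all 4 wild type ones. Within the knockout it was higher at day 6 (log2 difference 0.73, adjusted p = 0.0124), a call that was lost without day 3 replicate 1 (adjusted p = 0.0995) or day 6 replicate 2 (adjusted p = 0.0929). Which part of the gene was deleted is not known from the labels. Estimated depth in the 4 knockout libraries was 29.5 to 35.1 M reads (M, mega). A value of 1 FPKM then stands for 59.0 to 70.3 reads if the transcript is 2 kb long. Between 12018 and 12238 genes reached 1 FPKM in each. The Y-linked translation factor gene Eif2s3y stood at 2.86 and 1.82 FPKM at day 3 and 2.48 and 1.4 FPKM at day 6 in the knockout. In wild type it stood at 9.4 and 14.4 FPKM at day 3 and 12 and 20.4 FPKM at day 6, so Y-linked RNA moved with genotype. Its part in the differences between genotypes was not tested.

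Promoter sequences of 5 genes, 2 that fell and 3 that rose, are shown first, so that the short words counted over all promoters can be seen in place. They are the 250 bases before the transcription start in RefSeq for GRCm38.p6, given 5′ to 3′ on the strand of the gene, with the start just after the last base. The capitals mark TTTGCAT, the core of the octamer that POU factors such as Oct4 bind, in 2 pluripotency genes that fell, and ACGTG, the core of the hypoxia response element and of E-box variants, in 3 genes of glycolysis and the hypoxia response that rose. Both words were searched on both strands, and a match on the other strand appears as its reverse complement.
Nanog: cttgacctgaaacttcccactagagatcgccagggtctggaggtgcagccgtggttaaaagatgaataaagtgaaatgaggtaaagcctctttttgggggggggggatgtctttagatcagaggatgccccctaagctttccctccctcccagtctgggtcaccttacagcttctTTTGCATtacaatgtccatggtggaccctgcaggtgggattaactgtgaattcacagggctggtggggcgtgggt
Zfp42: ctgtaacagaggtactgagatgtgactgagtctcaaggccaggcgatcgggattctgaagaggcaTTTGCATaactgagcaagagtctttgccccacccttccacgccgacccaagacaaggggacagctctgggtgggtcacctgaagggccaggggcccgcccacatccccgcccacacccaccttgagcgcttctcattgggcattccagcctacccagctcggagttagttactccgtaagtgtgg
Pgk1: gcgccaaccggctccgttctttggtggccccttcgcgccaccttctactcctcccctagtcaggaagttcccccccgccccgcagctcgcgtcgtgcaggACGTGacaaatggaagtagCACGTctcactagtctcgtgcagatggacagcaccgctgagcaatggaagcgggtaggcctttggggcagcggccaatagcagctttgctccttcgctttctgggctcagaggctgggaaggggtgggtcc
Bnip3: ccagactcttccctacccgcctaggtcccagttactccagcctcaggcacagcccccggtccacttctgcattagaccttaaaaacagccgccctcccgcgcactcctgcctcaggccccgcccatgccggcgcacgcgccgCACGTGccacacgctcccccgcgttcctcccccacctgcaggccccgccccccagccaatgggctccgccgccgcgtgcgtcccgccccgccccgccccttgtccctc
Ankrd37: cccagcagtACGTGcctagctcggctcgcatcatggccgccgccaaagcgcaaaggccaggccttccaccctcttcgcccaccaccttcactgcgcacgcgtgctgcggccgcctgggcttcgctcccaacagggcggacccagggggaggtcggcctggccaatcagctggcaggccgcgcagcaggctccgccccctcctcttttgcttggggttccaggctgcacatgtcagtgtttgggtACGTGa

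Nanog lies at chr6:122707239-122707488 on the plus strand and its match begins 75 bases before the start. That of Zfp42, at chr8:43307010-43307259 on the minus strand, begins 185 bases before it. Pgk1, at chrX:106186850-106187099 on the plus strand, holds one match on each strand, beginning 150 and 131 bases before the start. In Bnip3, at chr7:138909507-138909756 on the minus strand, the 2 matches overlap as a palindrome of both strands, and in Ankrd37, at chr8:45999851-46000100 on the minus strand, they begin 241 and 6 bases before the start. The window of Ankrd37 belongs to a start inside the annotated gene (chromosome 8, 45996908 to 46000414 in GRCm38.p6), whose 5′ end lies further upstream. A match describes letters, not binding, and was not tested against the change in RNA.

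Such promoters could be read for 9454 of the tested genes, chromosome 18 left aside, taking the first listed start of the 1934 genes with several. TTTGCAT stood in 36 of the 506 promoters of genes that fell at least 2-fold (7.11%), in 3.65% of the 630 of genes that rose at least 2-fold and in 3.01% of all. On the naive pluripotency list it stood in 2 of the 10 matched promoters, Nanog and Zfp42, which are the 2 printed. On the general pluripotency list it stood in 1 of 8, Sox2. Most pluripotency genes read here thus lacked the word in this window. The falling genes also held fewer CpG in the same window, with a median of 11 against 16 in the rising genes and 16 over all promoters. ACGTG stood in 6 of the 11 matched promoters of the glycolysis and hypoxia list, Ldha, Slc2a1 and Egln3 besides the 3 printed, against 22.4% of all promoters and 18.9% of those of genes that rose at least 2-fold.

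From day 3 to day 6 the knockout embryoid bodies lost the RNA of the naive network and gained that of streak, lateral mesoderm, endothelium, endoderm and keratins, while the neural genes on the list moved both ways. By limma on log2(FPKM + 1), with adjustment over all tested genes and a threshold of 0.05, 3807 genes rose (30.7%) and 3671 fell (29.6%). At least 2-fold rises numbered 874 (7.04%) and falls 716 (5.77%), and 101 genes rose and 23 fell by at least 8-fold. Since most genes were called, the share of a list that moved is read against 30.7% and 29.6%. These shares are no fair measure for lists with many members below 1 FPKM at day 3, as set out below. The median difference over all tested genes was 0.0087.

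The day 3 and day 6 libraries did not overlap in any of the 7478 called genes, and over all tested genes they did not overlap in 10316 (83.1%). An exact permutation test of 2 libraries against 2 cannot give a p under 0.333, and each p printed here comes from the fit across genes, whose spread is shared over 12 libraries. The expression minimum lets a gene that was silent at day 3 enter only if it was high at day 6. Of the 528 tested genes below 1 FPKM at day 3, 432 rose, and of the 424 below 1 FPKM at day 6, 320 fell. Counts of list members are therefore given over the tested ones and, where that matters, also with no minimum. In the fit with no minimum 4500 genes rose and 4258 fell, from a larger set of genes whose size is not given. The no-minimum counts of a list thus have no background share. They do not show that the list moved more often than other genes. These are bulk samples, in which fewer cells of a type and less RNA per cell cannot be told apart.

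**Figure D1:**
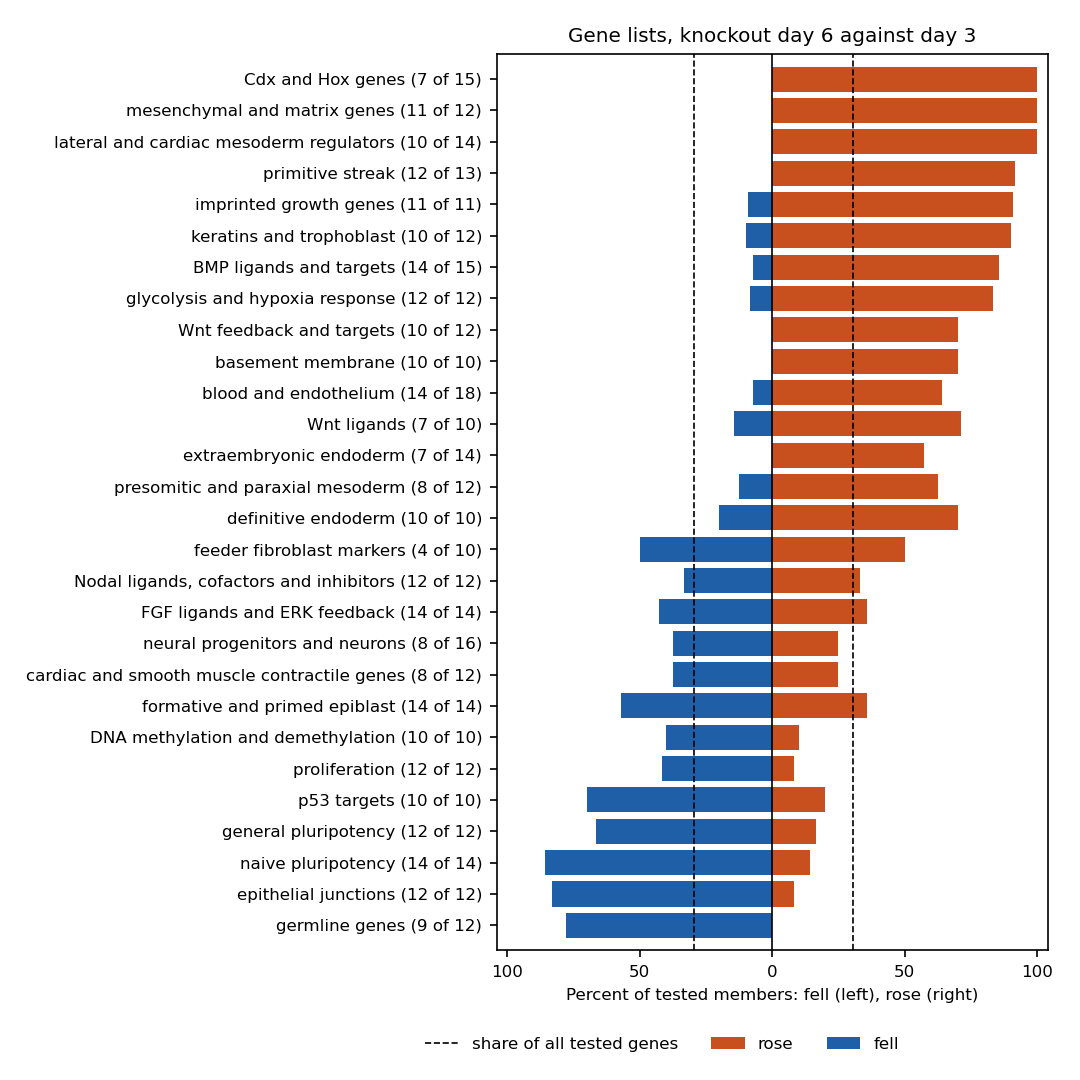
Share of the tested members of each gene list that rose (right) or fell (left) from day 3 to day 6 in the knockout, in percent, with the number tested of the number listed in brackets. Dashed lines mark the 30.7% and 29.6% of all tested genes that rose and fell. The bars of lateral mesoderm, mesenchymal and Cdx and Hox genes reach 100 on the right, and those of naive pluripotency, junction and germline genes point left. Of the tested lateral mesoderm, mesenchymal and Cdx and Hox genes, 8 of 10, 4 of 11 and 7 of 7 were below 1 FPKM at day 3. Such genes passed the minimum only through day 6, so these 100% bars are not read against the dashed lines.

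Most naive pluripotency factors fell. Of the 14 listed genes all 14 were tested, 12 fell and 2 rose, with a median difference of -1.82. Nanog, a core transcription factor of the naive state, was at 142 and 155 FPKM at day 3 and 59.6 and 20.4 FPKM at day 6. The day 6 libraries lay below both day 3 libraries, replicate 2 the lower of them, and the mean at day 6 was 26.9% of that at day 3 (log2 difference -2.05, SE 0.38, adjusted p = 0.00185). Esrrb, an orphan nuclear receptor that holds naive cells in self-renewal, went from 42.9 and 47.2 FPKM at day 3 to 10.4 and 6.2 FPKM at day 6 (log2 difference -2.35, SE 0.33, adjusted p = 0.000513). Zfp42, the marker gene also called Rex1, was at 49.5 and 57.4 FPKM at day 3 and 11.9 and 7.84 FPKM at day 6 (log2 difference -2.35, SE 0.39, adjusted p = 0.00107). Both day 6 libraries were low in each of these genes, again with replicate 2 below replicate 1.

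The exceptions were Klf4 and Tbx3. Klf4, a Kruppel-like factor of the naive network, was already low, at 1.19 and 1.52 FPKM at day 3 and 3.33 and 5.24 FPKM at day 6, and rose (log2 difference 1.15, SE 0.19, adjusted p = 0.00105). Tbx3, a T-box factor of naive cells that is also used in lateral mesoderm and early heart, was at 3.42 and 3.63 FPKM at day 3 and 62.6 and 75.2 FPKM at day 6 (log2 difference 3.95, SE 0.57, adjusted p = 0.000555). Both of its day 6 libraries stood far above the day 3 ones. Klf5 was the least changed of the genes that fell (log2 difference -0.42, SE 0.13, adjusted p = 0.0232), a call lost without day 3 replicate 2 (adjusted p = 0.132) or day 6 replicate 2 (adjusted p = 0.149).

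Of the 12 general pluripotency genes, 8 fell and 2 rose (median -2.06). Pou5f1, which encodes Oct4, was at 317 and 326 FPKM at day 3 and 123 and 46.1 FPKM at day 6, 26.3% of the day 3 mean at day 6 (log2 difference -2.08, SE 0.42, adjusted p = 0.00284). Sox2, the partner of Oct4, was at 124 and 129 FPKM at day 3 and 44.4 and 17 FPKM at day 6 (log2 difference -2.16, SE 0.46, adjusted p = 0.00356). Dppa5a, an RNA-binding protein gene that marks ESCs, showed the greatest fall on the list, from 816 and 912 FPKM at day 3 to 149 and 72.3 FPKM at day 6 (log2 difference -3.04, SE 0.48, adjusted p = 0.000893). In these 3 genes replicate 2 at day 6 stood below replicate 1 by a factor of over 2. Lin28a, an RNA-binding protein that restrains let-7 microRNAs, did not pass, at 178 and 169 FPKM at day 3 and 162 and 153 FPKM at day 6. Sall4 was at 120.4 and 133 FPKM at day 3 and 149 and 148 FPKM at day 6. Its call was lost without any one of the 4 knockout libraries (adjusted p = 0.253 without day 3 replicate 1, 0.0551 without day 3 replicate 2, 0.126 without day 6 replicate 1 and 0.131 without day 6 replicate 2). The call of Trim71 (0.25) was lost without day 3 replicate 1 (adjusted p = 0.0824) or day 6 replicate 2 (adjusted p = 0.0922).

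Formative and primed epiblast genes split. Of the 14 listed and tested, 8 fell and 5 rose (median -0.85), and without day 3 replicate 1 or day 6 replicate 2 the genes that fell numbered 3. Otx2, a homeobox factor that moves cells from the naive to the formative state, was at 58.9 and 48.5 FPKM at day 3 and 30.3 and 18.4 FPKM at day 6 (log2 difference -1.14, SE 0.28, adjusted p = 0.00738). Fgf5, the classical epiblast marker, was at 55.6 and 50.9 FPKM at day 3 and 32.4 and 24.7 FPKM at day 6 (log2 difference -0.89, SE 0.26, adjusted p = 0.0163). The call of Otx2 was lost without day 3 replicate 1 (adjusted p = 0.0549) or day 6 replicate 2 (adjusted p = 0.0636). That of Fgf5 was lost without day 3 replicate 1 (adjusted p = 0.0837), day 3 replicate 2 (adjusted p = 0.0556) or day 6 replicate 2 (adjusted p = 0.113). Lef1, a nuclear effector of Wnt signals, rose from 7.53 and 6.25 FPKM at day 3 to 40.3 and 38.5 FPKM at day 6 (log2 difference 2.36, SE 0.17, adjusted p = 4.88e-05). Sox4 rose as well (1.13). Zic2 did not pass, at 79.2 and 69.4 FPKM at day 3 and 70.3 and 44.5 FPKM at day 6.

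Germline genes, many of which are methylated as the embryo leaves pluripotency, fell. Of the 12 listed 9 were tested, and 7 fell and 0 rose (median -1.06); with no minimum 10 of 12 fell. Sycp3, of the meiotic chromosome axis, was at 9.55 and 7.04 FPKM at day 3 and 0.465 and 0.176 FPKM at day 6 (log2 difference -2.81, SE 0.19, adjusted p = 3.43e-05). Ddx4, a germ cell RNA helicase, was at 5.79 and 6.95 FPKM at day 3 and 1.28 and 0.636 FPKM at day 6 (log2 difference -1.93, SE 0.26, adjusted p = 0.000431). Both day 6 libraries were far below day 3 in each. The count of falls over the tested 9 was 3 without day 3 replicate 2 and 4 without day 6 replicate 2. The genes of DNA methylation moved in part. The falls on this list of 10 numbered 4, and 2 without day 3 replicate 1 or day 6 replicate 2. Tet1, which oxidises 5-methylcytosine, fell from 38.7 and 40.3 FPKM at day 3 to 19.7 and 15.6 FPKM at day 6 (log2 difference -1.13, SE 0.15, adjusted p = 0.000432). Its relative Tet3 rose from 4.62 and 4.26 FPKM at day 3 to 9.47 and 12.2 FPKM at day 6 (log2 difference 1.11, SE 0.12, adjusted p = 0.000152). Dnmt3l, a cofactor of the de novo methyltransferases, fell from 26 and 34.8 FPKM at day 3 to 7.94 and 4.79 FPKM at day 6 (log2 difference -2.11, SE 0.47, adjusted p = 0.00438).

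The primitive streak genes rose as a group. Of the 13 listed 12 were tested, 5 of them below 1 FPKM at day 3; 11 rose and 0 fell (median 3.89), and with no minimum 11 of 13 rose. T, which encodes Brachyury, was at 1.71 and 2.34 FPKM at day 3 and 97.9 and 50.7 FPKM at day 6 (log2 difference 4.57, SE 0.38, adjusted p = 7.08e-05). Mixl1, a homeobox factor of streak and early mesendoderm, was at 0.833 and 0.929 FPKM at day 3 and 81.8 and 50.1 FPKM at day 6 (log2 difference 5.11, SE 0.40, adjusted p = 6.21e-05). Eomes, a T-box factor needed for mesoderm and endoderm, was at 10.2 and 11.6 FPKM at day 3 and 113 and 78.3 FPKM at day 6 (log2 difference 3.00, SE 0.34, adjusted p = 0.000217). In these 3 genes both day 6 libraries stood far above day 3, and replicate 1 stood above replicate 2.

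Gsc, of the anterior streak and organizer, was at 1.52 and 0.911 FPKM at day 3 and 23.4 and 24 FPKM at day 6 (log2 difference 3.49, SE 0.20, adjusted p = 2.09e-05). Its day 6 replicates were close to each other. Lhx1 (chromosome 11, 84517975 to 84525534 in GRCm38.p6), a LIM homeobox factor of anterior mesendoderm and later of nephric mesoderm, was at 0.154 and 0.261 FPKM at day 3 and 61.7 and 64.3 FPKM at day 6 (log2 difference 5.73, SE 0.33, adjusted p = 2.09e-05). Mesp1, which marks the earliest cardiovascular mesoderm, was listed at 0 FPKM in both day 3 libraries and at 50.5 and 38.2 FPKM at day 6 (adjusted p = 0.000466). Fgf8, the ligand by which streak cells migrate away, was at 18.5 and 21.3 FPKM at day 3 and 106 and 86.3 FPKM at day 6 (log2 difference 2.21, SE 0.27, adjusted p = 0.000273). Wnt8a did not pass, at 3.36 and 4.44 FPKM at day 3 and 9.53 and 3.47 FPKM at day 6, with only day 6 replicate 1 above day 3.

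Genes of presomitic and paraxial mesoderm had a lower median than the streak genes. Of the 12 listed 8 were tested, 3 of them below 1 FPKM at day 3, and 5 rose and 1 fell (median 1.45). With no minimum 8 rose and 1 fell. Msgn1, of presomitic mesoderm, was at 0.0897 and 0.0757 FPKM at day 3 and 2.97 and 2.66 FPKM at day 6 (log2 difference 1.82, SE 0.28, adjusted p = 0.000821). Tbx6, which turns streak cells from a neural to a mesodermal fate, was at 0.867 and 0.659 FPKM at day 3 and 4.16 and 3.47 FPKM at day 6 (log2 difference 1.45, SE 0.24, adjusted p = 0.00107). Rspo3, a secreted amplifier of Wnt signals, was at 0.912 and 1.35 FPKM at day 3 and 17.9 and 20.9 FPKM at day 6 (log2 difference 3.26, SE 0.47, adjusted p = 0.000561). The Notch ligand gene Dll1 stayed at 2.72 and 2.95 FPKM at day 3 and 2.95 and 3.16 FPKM at day 6 and did not pass. Tcf15 fell from 18.3 and 16.7 FPKM at day 3 to 6.23 and 2.97 FPKM at day 6 (log2 difference -1.79, SE 0.45, adjusted p = 0.00809), a call that was lost without day 6 replicate 2 (adjusted p = 0.0707). Without day 6 replicate 1 the falls on this list numbered 2.

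Of all the lists, that of lateral and cardiac mesoderm regulators had the highest median over its tested members. The minimum favours such a rank, since Gata5, Tbx5, Mef2c and Osr1, low over both days, were left out. The rank is therefore not read as a result. Of the 14 listed 10 were tested, 8 of them below 1 FPKM at day 3, and all 10 tested genes rose (median 4.47); with no minimum 13 of 14 rose. Hand1 (chromosome 11, 57828713 to 57832147 in GRCm38.p6), a basic helix-loop-helix factor of extraembryonic and lateral mesoderm, heart and trophoblast, was at 0.541 and 0.327 FPKM at day 3 and 137 and 236 FPKM at day 6 (log2 difference 6.98, SE 1.07, adjusted p = 0.000752), the greatest log2 difference of all tested genes. Foxf1, a forkhead factor of lateral and splanchnic mesoderm, was at 0.0295 and 0.0623 FPKM at day 3 and 40.0 and 66.8 FPKM at day 6 (log2 difference 5.66, SE 0.94, adjusted p = 0.00112). Gata6, a zinc finger factor of cardiac mesoderm and endoderm, was at 0.219 and 0.185 FPKM at day 3 and 26.7 and 39 FPKM at day 6 (log2 difference 4.79, SE 0.40, adjusted p = 7.08e-05). In each gene the day 6 libraries lay far above day 3, replicate 2 the higher of them.

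Tbx20, a T-box factor of the heart, was at 0.562 and 0.623 FPKM at day 3 and 29.2 and 46.1 FPKM at day 6 (log2 difference 4.57, SE 0.68, adjusted p = 0.000633). Pdgfra, the receptor that marks mesoderm leaving the streak, was at 0.149 and 0.222 FPKM at day 3 and 20.7 and 26.9 FPKM at day 6 (log2 difference 4.38, SE 0.56, adjusted p = 0.00034). Isl1, of second heart field progenitors, was lower, at 0.325 and 0.429 FPKM at day 3 and 5.78 and 7.53 FPKM at day 6 (log2 difference 2.47, SE 0.41, adjusted p = 0.00111). Genes of the contractile apparatus, which such regulators precede in heart and smooth muscle, did not move as a group. Of 12 such genes 8 were tested, with 2 rises, Tnnc1 (2.85) and Tnni1 (1.86), and 3 falls, Tagln (-1.27), Cnn1 and Myl9; with no minimum 5 rose and 4 fell. The falls numbered 1 without day 3 replicate 1, day 3 replicate 2 or day 6 replicate 2. Actc1, for cardiac actin, was at 1.3 and 1.23 FPKM at day 3 and 2.1 and 0.773 FPKM at day 6 and did not pass, and Tnnt2, Myh6 and Myh7 were under the expression minimum.

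**Figure D2:**
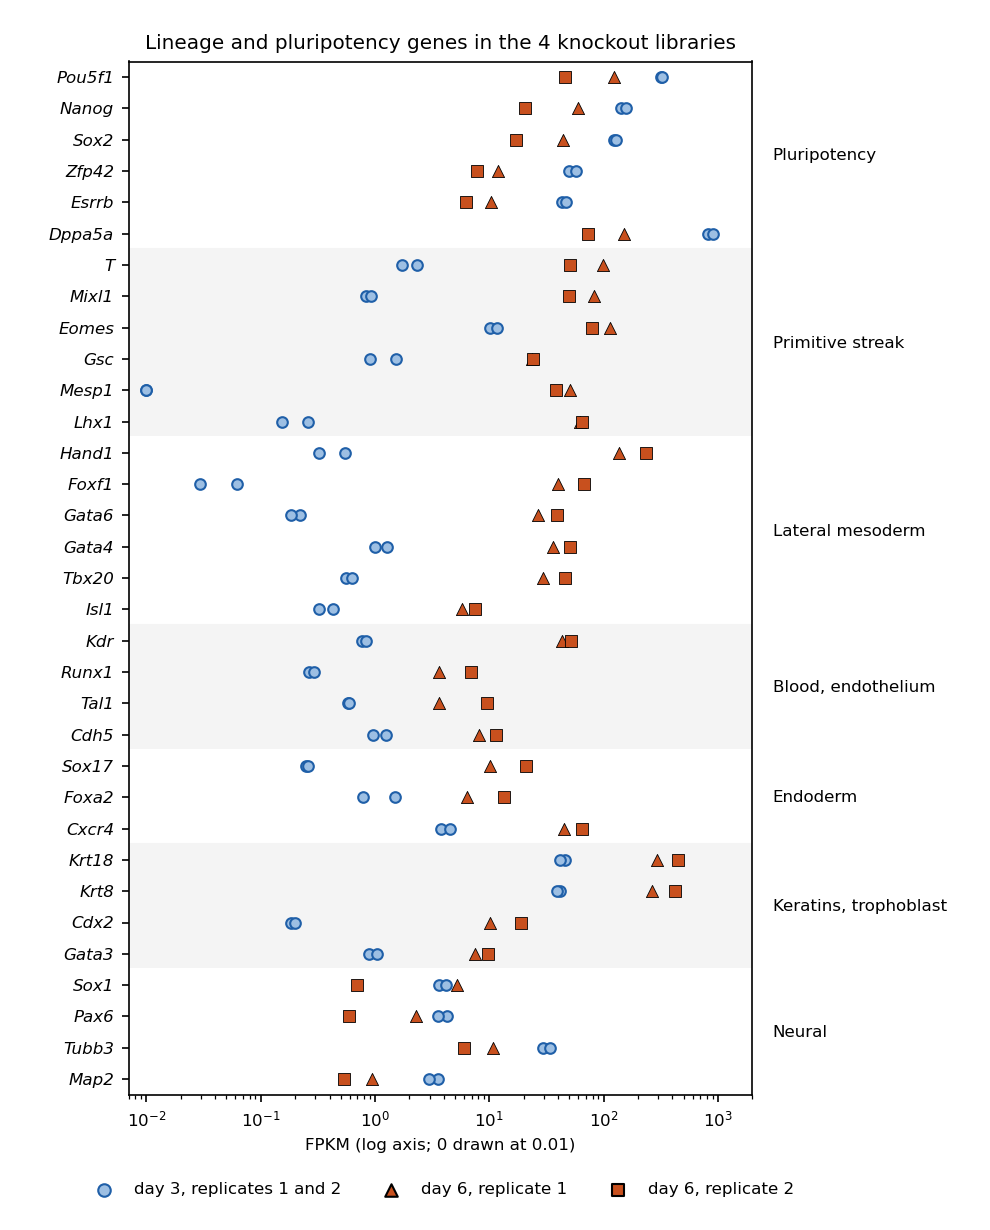
FPKM (log axis) of lineage and pluripotency genes in the 4 knockout libraries, with day 3 as circles and day 6 replicates 1 and 2 as a triangle and a square. At day 6 replicate 2 lies below replicate 1 in the pluripotency genes drawn and above it in the lateral mesoderm genes drawn, as in Pou5f1 (123 and 46.1) and Hand1 (137 and 236).

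Of the 18 listed genes of blood and endothelium 14 were tested, 7 of them below 1 FPKM at day 3, with 9 rises and 1 fall (median 1.73). With no minimum 11 rose and 1 fell. Kdr, the VEGF receptor of the earliest blood and endothelial progenitors, was at 0.762 and 0.829 FPKM at day 3 and 43.5 and 51.6 FPKM at day 6 (log2 difference 4.75, SE 0.65, adjusted p = 0.000446). Runx1, needed for definitive blood, was at 0.267 and 0.292 FPKM at day 3 and 3.6 and 6.97 FPKM at day 6 (log2 difference 2.24, SE 0.38, adjusted p = 0.00124). Cdh5, the cadherin of endothelial junctions, was at 0.954 and 1.24 FPKM at day 3 and 8.16 and 11.4 FPKM at day 6 (log2 difference 2.35, SE 0.28, adjusted p = 0.000266). All day 6 libraries exceeded those of day 3 in these genes.

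Tal1, which sets the blood fate, was at 0.581 and 0.587 FPKM at day 3 and 3.59 and 9.58 FPKM at day 6 (log2 difference 2.14, SE 0.57, adjusted p = 0.0108), a call lost without day 3 replicate 1 (adjusted p = 0.0514), day 3 replicate 2 (adjusted p = 0.0513) or day 6 replicate 2 (adjusted p = 0.0892). The embryonic globin gene Hbb-bh1 was at 1.28 and 0.339 FPKM at day 3 and 1.13 and 13.6 FPKM at day 6 and did not pass, with day 6 replicate 2 alone far above the rest. Pecam1, which ESCs as well as endothelium express, fell from 12.1 and 15.3 FPKM at day 3 to 4.32 and 7.09 FPKM at day 6 (log2 difference -1.15, SE 0.24, adjusted p = 0.00296).

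Endoderm genes rose alongside. Of the 10 definitive endoderm genes, all tested and 3 of them below 1 FPKM at day 3, 7 rose and 2 fell (median 1.97). Sox17, an endoderm determinant, was at 0.248 and 0.26 FPKM at day 3 and 10.1 and 21 FPKM at day 6 (log2 difference 3.64, SE 0.40, adjusted p = 0.000178). Foxa2, a pioneer factor of endoderm and node, was at 0.79 and 1.5 FPKM at day 3 and 6.41 and 13.3 FPKM at day 6 (log2 difference 2.29, SE 0.30, adjusted p = 0.000388). Cxcr4, a chemokine receptor of definitive endoderm and mesoderm, was at 3.74 and 4.55 FPKM at day 3 and 45.4 and 64.5 FPKM at day 6 (log2 difference 3.43, SE 0.42, adjusted p = 0.000299). In all 3 the day 6 libraries were high, replicate 2 above replicate 1. The 2 that fell were Trh (-1.89), a neuropeptide gene also high in epiblast-like cells, and Epcam (-0.91), an epithelial adhesion gene of ESCs. Of the 14 extraembryonic endoderm genes 7 were tested, 4 of them below 1 FPKM at day 3, and 4 rose. With no minimum 8 of 14 rose. Afp, Ttr and Hnf4a, genes of visceral endoderm, were under the minimum.

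Neural genes gave no common direction. Of the 16 listed 8 were tested, of which 3 fell and 2 rose (median -0.59). Tubb3, the neuronal tubulin gene, was at 29.2 and 34.1 FPKM at day 3 and 10.9 and 5.96 FPKM at day 6 (log2 difference -1.84, SE 0.28, adjusted p = 0.000764). Map2, for a dendritic microtubule protein, was at 3.54 and 2.96 FPKM at day 3 and 0.949 and 0.531 FPKM at day 6 (log2 difference -1.29, SE 0.16, adjusted p = 0.000276). Sox1, the earliest neural plate marker, was at 3.66 and 4.16 FPKM at day 3 and 5.22 and 0.701 FPKM at day 6 and did not pass: day 6 replicate 1 lay above day 3 and replicate 2 below it. Pax6 was at 4.23 and 3.54 FPKM at day 3 and 2.27 and 0.592 FPKM at day 6, and its call (-1.09) was lost without day 3 replicate 1 (adjusted p = 0.119), day 3 replicate 2 (adjusted p = 0.0709) or day 6 replicate 2 (adjusted p = 0.193). The rises were those of Ncam1, an adhesion gene that mesoderm also expresses, at 1.7 and 1.75 FPKM at day 3 and 6.74 and 8.77 FPKM at day 6 (log2 difference 1.68, SE 0.15, adjusted p = 8.45e-05), and of the homeobox gene Otx1 (1.55). Without day 6 replicate 1 the neural genes that fell numbered 6.

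Keratins and genes of trophoblast or surface ectoderm rose instead. Of the 12 listed 10 were tested, 5 below 1 FPKM at day 3, with 9 rises and 1 fall (median 2.37); with no minimum 10 rose. Krt8 and Krt18, the paired keratins of simple epithelia, both rose. Krt8 was at 41.7 and 39.3 FPKM at day 3 and 263 and 421 FPKM at day 6 (log2 difference 3.01, SE 0.38, adjusted p = 0.000328). Krt18 was at 46 and 41.9 FPKM at day 3 and 292 and 444 FPKM at day 6 (log2 difference 3.01, SE 0.34, adjusted p = 0.000216). Cdx2, a homeobox factor of trophectoderm and of posterior mesoderm, was at 0.186 and 0.200 FPKM at day 3 and 10.2 and 19 FPKM at day 6 (log2 difference 3.65, SE 0.42, adjusted p = 0.000234). Gata3, of trophoblast and surface ectoderm, was at 0.882 and 1.04 FPKM at day 3 and 7.44 and 9.73 FPKM at day 6 (log2 difference 2.28, SE 0.30, adjusted p = 0.000357). Day 6 replicate 2 was the highest library in each. Tfap2c, an AP-2 factor of trophoblast and germ cells, fell (-1.14), and Elf5, a defining factor of trophoblast stem cells, was under the minimum.

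Genes of epithelial junctions fell and mesenchymal genes rose. Of 12 junction genes 10 fell and 1 rose (median -0.88). Of 12 mesenchymal and matrix genes 11 were tested, 4 of them below 1 FPKM at day 3, and all 11 tested genes rose (median 2.22). With no minimum 11 of 12 rose. Cdh1, for E-cadherin, was at 217 and 198 FPKM at day 3 and 90.1 and 76.8 FPKM at day 6 (log2 difference -1.31, SE 0.15, adjusted p = 0.000223). Cdh2, for N-cadherin, was at 7.44 and 7.46 FPKM at day 3 and 71 and 75.7 FPKM at day 6 (log2 difference 3.14, SE 0.24, adjusted p = 5.56e-05). The first was low and the second high in both day 6 libraries. Snai1, a repressor of Cdh1, was at 1.32 and 1.45 FPKM at day 3 and 26.9 and 24.5 FPKM at day 6 (log2 difference 3.48, SE 0.56, adjusted p = 0.000915). The intermediate filament gene Vim was at 38.5 and 39.7 FPKM at day 3 and 222 and 367 FPKM at day 6 (log2 difference 2.84, SE 0.38, adjusted p = 0.000406). Fibronectin, Fn1, was at 68 and 72.2 FPKM at day 3 and 515 and 544 FPKM at day 6 (log2 difference 2.90, SE 0.42, adjusted p = 0.000555). The junction gene that rose was Dsp, for desmoplakin (1.98), which pairs with keratin filaments. Of 10 basement membrane genes 7 rose and 0 fell (median 1.03), led by the collagen IV genes Col4a1 (2.70) and Col4a2 (2.78), while Lama5 (0.20) and Lamc1 (0.14) did not pass.

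The signalling pathways that pattern the streak changed unequally. Among BMP genes, 14 of 15 were tested, 4 of them below 1 FPKM at day 3, and 12 rose and 1 fell (median 2.61). These counts were the same with no minimum. The ligand gene Bmp4 was at 4.6 and 5.33 FPKM at day 3 and 38.6 and 60.0 FPKM at day 6 (log2 difference 3.05, SE 0.54, adjusted p = 0.00155). Bmp2, a related ligand gene, was at 0.176 and 0.214 FPKM at day 3 and 15.4 and 24.1 FPKM at day 6 (log2 difference 4.08, SE 0.48, adjusted p = 0.000239). Their target genes followed the same direction. Id1 was at 21.7 and 19 FPKM at day 3 and 106 and 138 FPKM at day 6 (log2 difference 2.52, SE 0.33, adjusted p = 0.000396) and the homeobox gene Msx1 was at 0.247 and 0.128 FPKM at day 3 and 26 and 34.6 FPKM at day 6 (log2 difference 4.71, SE 0.43, adjusted p = 9.55e-05). Both day 6 libraries were high in these 4 genes. Smad7, an inhibitory Smad, stayed at 29.1 and 31.7 FPKM at day 3 and 26.7 and 33.8 FPKM at day 6 and did not pass. Id4 fell by 0.37, a call lost without day 3 replicate 2 (adjusted p = 0.141) or day 6 replicate 2 (adjusted p = 0.131).

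Nodal genes moved both ways, 4 up and 4 down of 12 tested (33.3% each, near the 30.7% and 29.6% of all tested genes; median -0.10). Nodal itself, the TGF-beta ligand that maintains epiblast and induces the streak, was at 33.8 and 38.3 FPKM at day 3 and 19.3 and 13.5 FPKM at day 6 (log2 difference -1.11, SE 0.21, adjusted p = 0.00226). Its feedback inhibitor Lefty1 was at 58.9 and 68.9 FPKM at day 3 and 8.2 and 5.25 FPKM at day 6 (log2 difference -3.09, SE 0.54, adjusted p = 0.00135), and at day 6 both libraries were far below day 3. Cfc1, which encodes the co-receptor Cryptic, was at 0.784 and 0.828 FPKM at day 3 and 24.5 and 38.4 FPKM at day 6 (log2 difference 4.13, SE 0.62, adjusted p = 0.000696), while Tdgf1, the co-receptor Cripto, did not pass at 247 and 236 FPKM at day 3 and 252 and 134 FPKM at day 6. Foxh1, the DNA-binding partner of activated Smads, rose from 41.7 and 44.4 FPKM at day 3 to 105 and 124 FPKM at day 6 (log2 difference 1.39, SE 0.17, adjusted p = 0.000295).

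Of 10 Wnt ligand genes 7 were tested, 3 of them below 1 FPKM at day 3, with 5 rises and 1 fall. With no minimum 6 rose and 1 fell. Wnt3, which induces the streak, was at 1.82 and 1.71 FPKM at day 3 and 17.7 and 14.5 FPKM at day 6 (log2 difference 2.62, SE 0.38, adjusted p = 0.000595). Wnt5a, a ligand of non-canonical signalling in elongating mesoderm, was at 0.214 and 0.181 FPKM at day 3 and 13.8 and 18.4 FPKM at day 6 (log2 difference 3.82, SE 0.47, adjusted p = 0.000283). Wnt7b fell from 3.89 and 6.28 FPKM at day 3 to 0.985 and 0.868 FPKM at day 6 (log2 difference -1.63, SE 0.21, adjusted p = 0.000355). Of 12 feedback and target genes 10 were tested, 3 of them below 1 FPKM at day 3, and 7 rose and 0 fell (median 2.14). With no minimum 9 rose and 0 fell. Axin2, a common feedback gene of canonical Wnt signals, was at 5.76 and 6.04 FPKM at day 3 and 31.6 and 30.5 FPKM at day 6 (log2 difference 2.22, SE 0.27, adjusted p = 0.000287). Sp5 was at 0.381 and 0.599 FPKM at day 3 and 28.5 and 27.4 FPKM at day 6 (log2 difference 4.29, SE 0.32, adjusted p = 5.56e-05). Znrf3, a feedback ubiquitin ligase, stayed at 5.9 and 5.62 FPKM at day 3 and 5.69 and 5.9 FPKM at day 6. Of these, Wnt3, Wnt5a, Axin2 and Sp5 were high in both day 6 libraries.

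The FGF list gave 5 rises and 6 falls of 14 (median -0.01), and 3 falls without day 3 replicate 1, day 3 replicate 2 or day 6 replicate 2. Fgf4, the ligand ESCs secrete, was at 20.8 and 18 FPKM at day 3 and 5.75 and 2.64 FPKM at day 6 (log2 difference -2.04, SE 0.40, adjusted p = 0.0025), whereas Fgf3 (4.36), Fgf10 (3.82) and Fgf8 (2.21), ligands of streak and mesoderm, rose. Of the feedback genes, Spry2 (-0.94) and Etv5 (-1.11) fell and Dusp4 stayed at 47.9 and 46.3 FPKM at day 3 and 46.1 and 44.5 FPKM at day 6. Posterior patterning genes were low but rising: of 15 Cdx and Hox genes 7 were tested, all below 1 FPKM at day 3, and all 7 rose; with no minimum 14 of 15 rose. Hoxb2 was at 0.276 and 0.291 FPKM at day 3 and 6.28 and 13 FPKM at day 6 (log2 difference 2.97, SE 0.49, adjusted p = 0.0011). Hoxb1 was at 0.297 and 0.384 FPKM at day 3 and 3.22 and 3.2 FPKM at day 6 (log2 difference 1.65, SE 0.38, adjusted p = 0.0052). Cyp26a1, which degrades retinoic acid in the posterior embryo, was at 0.581 and 0.544 FPKM at day 3 and 85.8 and 89.5 FPKM at day 6 (log2 difference 5.83, SE 0.38, adjusted p = 3.30e-05), among the 10 greatest rises.

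Growth and metabolism genes changed with them. Of 11 imprinted growth genes 10 rose and 1 fell (median 1.86). Igf2, the paternally expressed growth factor gene of mesoderm and endoderm, was at 15.8 and 18.7 FPKM at day 3 and 278 and 603 FPKM at day 6 (log2 difference 4.50, SE 0.74, adjusted p = 0.00108). Peg3 (3.13) and Peg10 (2.79) also rose by over 2 on the log2 scale, and H19, the maternally expressed neighbour of Igf2, was at 5.49 and 13.4 FPKM at day 3 and 26.7 and 72.5 FPKM at day 6 (log2 difference 2.22, SE 0.81, adjusted p = 0.0408). Day 6 replicate 2 was the highest library for all 4. The call of H19 was lost without day 3 replicate 1 (adjusted p = 0.216), day 3 replicate 2 (adjusted p = 0.0564) or day 6 replicate 2 (adjusted p = 0.237), and without either wild type day 3 library (adjusted p = 0.0544 and 0.0545). Plagl1 fell (-0.72), a call lost without day 3 replicate 1 (adjusted p = 0.0598), day 3 replicate 2 (adjusted p = 0.0707) or day 6 replicate 2 (adjusted p = 0.0752).

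Of 12 glycolysis and hypoxia genes 10 rose and 1 fell (median 1.15). Pgk1, whose promoter is printed above, was at 257 and 239 FPKM at day 3 and 593 and 613 FPKM at day 6 (log2 difference 1.28, SE 0.14, adjusted p = 0.000177). Bnip3, a mitophagy receptor induced in low oxygen, was at 25.2 and 19.5 FPKM at day 3 and 62.8 and 75.4 FPKM at day 6 (log2 difference 1.59, SE 0.17, adjusted p = 0.000155). Ankrd37 was at 6.12 and 6.98 FPKM at day 3 and 27.7 and 26.2 FPKM at day 6 (log2 difference 1.89, SE 0.27, adjusted p = 0.000513). Vegfa, the ligand of Kdr, was at 7.33 and 7.27 FPKM at day 3 and 30.3 and 38.3 FPKM at day 6 (log2 difference 2.08, SE 0.28, adjusted p = 0.000397). In each of these genes both day 6 libraries were above both of day 3. Ankrd37 overlaps Ufsp2 in RefSeq, so reads from the 2 genes may not be told apart. Pdk1, a textbook target of the same response, fell (-0.72), and Eno1 did not pass at 75 and 103 FPKM at day 3 and 279.9 and 111 FPKM at day 6.

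Of 10 p53 targets 7 fell and 2 rose (median -0.41). The greatest fall was Trp53inp1, a stress-induced gene of autophagy and apoptosis, at 59.4 and 60.8 FPKM at day 3 and 18.8 and 22 FPKM at day 6 (log2 difference -1.52, SE 0.09, adjusted p = 2.09e-05). The rises, Cdkn1a (0.53) and Bbc3 (0.33), numbered 0 without day 3 replicate 1 or day 6 replicate 2 and 1 without day 3 replicate 2. Of 12 proliferation genes 5 fell and 1 rose (median -0.10), with 2 falls without day 3 replicate 1, day 3 replicate 2 or day 6 replicate 2, and 3 rises without day 6 replicate 2. Cdk1, the mitotic kinase gene, was level at 48.9 and 50.1 FPKM at day 3 and 50.2 and 50.2 FPKM at day 6, and Ccnb1, its cyclin partner, was at 139 and 138 FPKM at day 3 and 82.4 and 76.6 FPKM at day 6 (log2 difference -0.79, SE 0.08, adjusted p = 0.000144). Feeder fibroblast genes split as well, with 2 rises and 2 falls of 4 tested (1 fall without day 3 replicate 1 or day 6 replicate 2). Thy1, Fap, Postn, Dcn and Lum summed to 7.59 and 5.758 FPKM at day 3 and 3.589 and 3.483 FPKM at day 6.

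**Figure D3:**
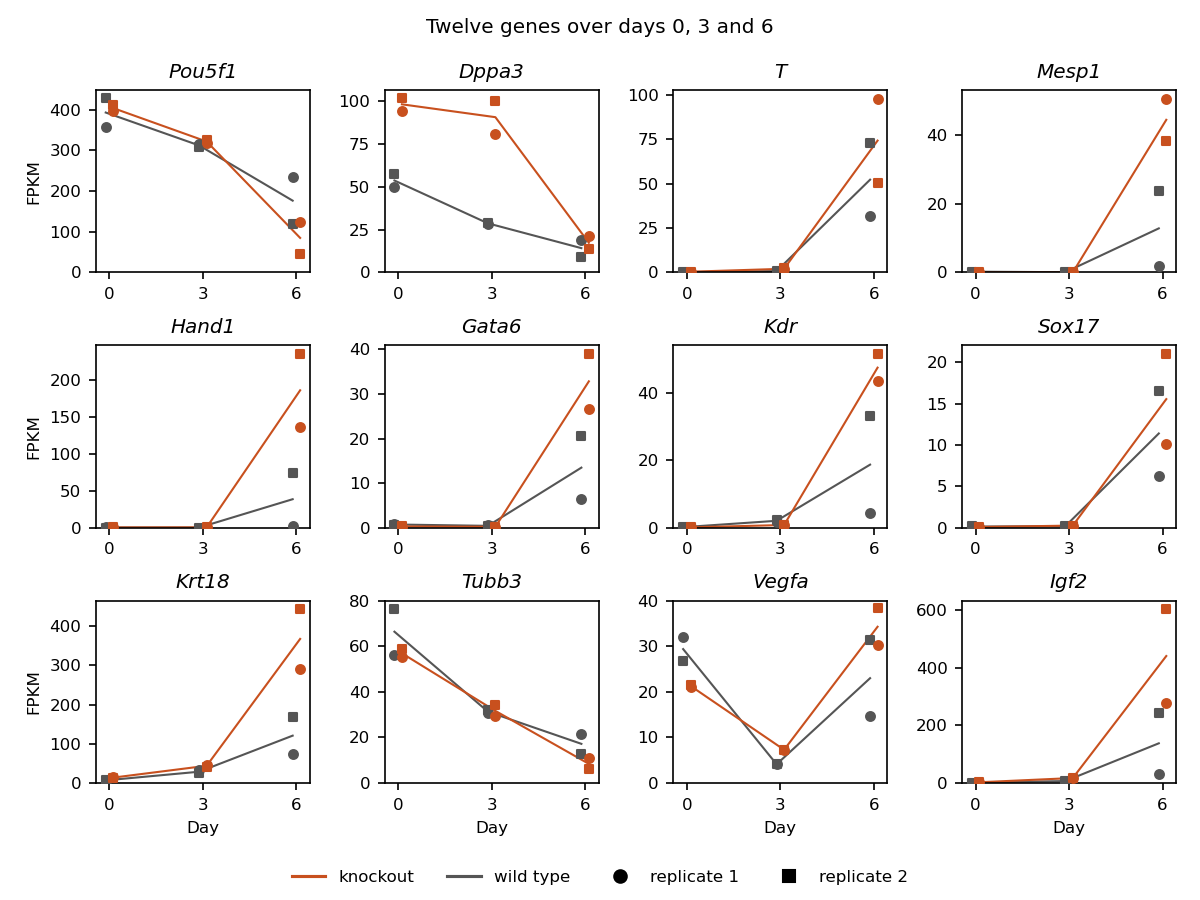
FPKM against day of 12 genes, in knockout (orange) and wild type (grey), with each library as a point and group means joined by lines. For Hand1 and Kdr the knockout libraries of day 6 exceed both wild type ones, whereas the ranges of T overlap between genotypes.

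The 2 libraries of day 6 differed from each other more than those of day 3, in both genotypes. By over 1.5-fold, 1082 genes differed between the wild type replicates of day 6 and 164 between those of day 3. In the knockout the numbers were 641 and 154 (Pearson's r of log2 values across genes 0.9717 and 0.9844, where genes are not independent replicates). At day 6 in the knockout, the summed FPKM of the ESC markers Pou5f1, Nanog, Sox2, Zfp42 and Esrrb was 249.5 in replicate 1 and 97.52 in replicate 2. That of the streak markers T, Mixl1 and Eomes was 293.3 and 179.1. The sums of the lateral mesoderm markers Hand1, Hand2, Foxf1 and Tbx20 went the other way, at 225.9 and 379.4, as did those of blood and endothelium at 57.15 and 89.21. All 10 tested lateral mesoderm regulators, all 14 blood and endothelial genes and all 11 mesenchymal genes were higher in replicate 2, against 55.7% of all genes. Conversely, 12 of 14 naive, 11 of 12 general pluripotency and 10 of 12 streak genes were higher in replicate 1. Single libraries allow no test, and the labels of the embryoid body libraries do not tie replicate numbers to the lines. Titles of the ESC libraries in the series give a separate name beside each genotype and replicate number. Whether the same lines bear the same numbers here is not stated.

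The top of the ranking held many small RNA genes. By the size of the log2 difference, the 10 greatest rises were Hand1, Scarna17, Mir25, Cyp26a1, Lhx1, Foxf1, Prdm6, Mesp1, Nrp1 and Oaz1-ps, and the 10 greatest falls Mir1892, Snord96a, Mir297c, Mir432, Mir1954, Snord88c, Mir3074-1, Snora15, Zfp987 and Snord83b. Many of these miRNA, snoRNA and scaRNA values appear to stand on few reads. Each was scaled by estimated depth, with the lowest nonzero library of the gene taken as 1 read, which was assumed. On that scale Scarna17 stood at 1.99 and 1 at day 6 and at 0 at day 3 in the knockout. Mir1954 stood at 1.01 and 1 at day 3 and at 0 at day 6. Of 213 small RNA genes tested 17 rose and 25 fell, and their FPKM are not read as levels here. Of the longer genes, Prdm6, a repressor of smooth muscle genes, was at 0.041 and 0.0231 FPKM at day 3 and 35.6 and 61.6 FPKM at day 6 (log2 difference 5.53, SE 0.73, adjusted p = 0.000385). Nrp1, a co-receptor of VEGF and semaphorins, was at 0.298 and 0.373 FPKM at day 3 and 39.9 and 82.2 FPKM at day 6 (log2 difference 5.45, SE 0.64, adjusted p = 0.00024).

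With small RNAs and pseudogenes left aside, a choice made after seeing the data, the 10 greatest falls were Zfp987, Zfp979, Snhg14, Zfp534, Amd1, Lefty1, Zfp985, Dppa5a, LOC101056073 and Zfp936. Zfp987 was at 54 and 54.1 FPKM at day 3 and 2.67 and 1.3 FPKM at day 6 (log2 difference -4.24, SE 0.43, adjusted p = 0.000142). Zfp534 was at 20.5 and 21.7 FPKM at day 3 and 1.21 and 0.604 FPKM at day 6 (log2 difference -3.55, SE 0.37, adjusted p = 0.000146). Zfp985 was at 17 and 16.6 FPKM at day 3 and 1.49 and 0.827 FPKM at day 6 (log2 difference -3.06, SE 0.32, adjusted p = 0.000154). Both day 6 libraries were far below day 3 in these zinc finger genes. Zfp979 and Zfp985 lie near Zfp534 (chromosome 4, 147674225 to 147702631 in GRCm38.p6), on the same chromosome as Zfp987 (chromosome 4, 146097312 to 146126624 in GRCm38.p6), and the authors' counting could split reads between such closely related genes, so each value is uncertain. In all, 319 genes with a symbol of Zfp and a number were tested, a class chosen after seeing the data. Of these 138 fell, 52 of them at least 2-fold, and 72 rose. Over all tested genes 29.6% fell, 5.77% fell at least 2-fold and 30.7% rose. Amd1, at 12.2 and 7.06 FPKM at day 3 and 0.0276 and 0.0191 FPKM at day 6, has near-identical copies too. Its wild type values were 0.0161 and 7.24 FPKM at day 3 and 4.4 and 0.0167 FPKM at day 6. Its call was lost without any one of the 4 knockout libraries (adjusted p = 0.103, 0.0552, 0.0688 and 0.0801 for day 3 replicates 1 and 2 and day 6 replicates 1 and 2).

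How the step differs from that of wild type was tested as the interaction of genotype and day in the same fit. By this test 184 genes had a higher step in the knockout (1.48%) and 409 a lower one (3.29%), and 3195 had an unadjusted p under 0.05. Of the 184, 167 rose in the knockout and 17 did not pass there, while of the 409, 386 fell, 7 rose and 16 did not pass. The knockout step is itself a part of the difference tested, so this match in direction was in part built in. With the replicate number as a block the counts were 47 and 173. The counts also changed by over 1.5 times on leaving out each library in turn. They were 19 and 66 without wild type day 3 replicate 1 and 30 and 118 without wild type day 3 replicate 2. They were 19 and 75 without knockout day 3 replicate 1, and 18 and 70 without knockout day 3 replicate 2. They were 76 and 194 without wild type day 6 replicate 1 and 1082 and 1220 without wild type day 6 replicate 2. Finally they were 533 and 628 without knockout day 6 replicate 1, and 47 and 157 without knockout day 6 replicate 2.

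The wild type day 6 libraries stood apart from each other. Over the 874 genes that rose at least 2-fold in the knockout, the median step was 0.61 in wild type replicate 1 and 1.225 in wild type replicate 2, and over the 716 that fell it was -0.441 and -1.017. Hand1, for one, was at 0.208 and 0.106 FPKM at day 3 and 2.67 and 74.6 FPKM at day 6 in wild type, and Foxf1 at 0.146 and 0.0809 FPKM at day 3 and 0.639 and 22.3 FPKM at day 6. Lineage genes with great knockout steps did not pass the interaction test. The difference of the steps was 3.13 for Hand1 (SE 1.51, adjusted p = 0.227), 3.18 for Foxf1 (adjusted p = 0.178), 1.15 for Mixl1 (adjusted p = 0.238) and -1.17 for Pou5f1 (adjusted p = 0.243). A p over the threshold does not show that the steps were alike.

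**Figure D4:**
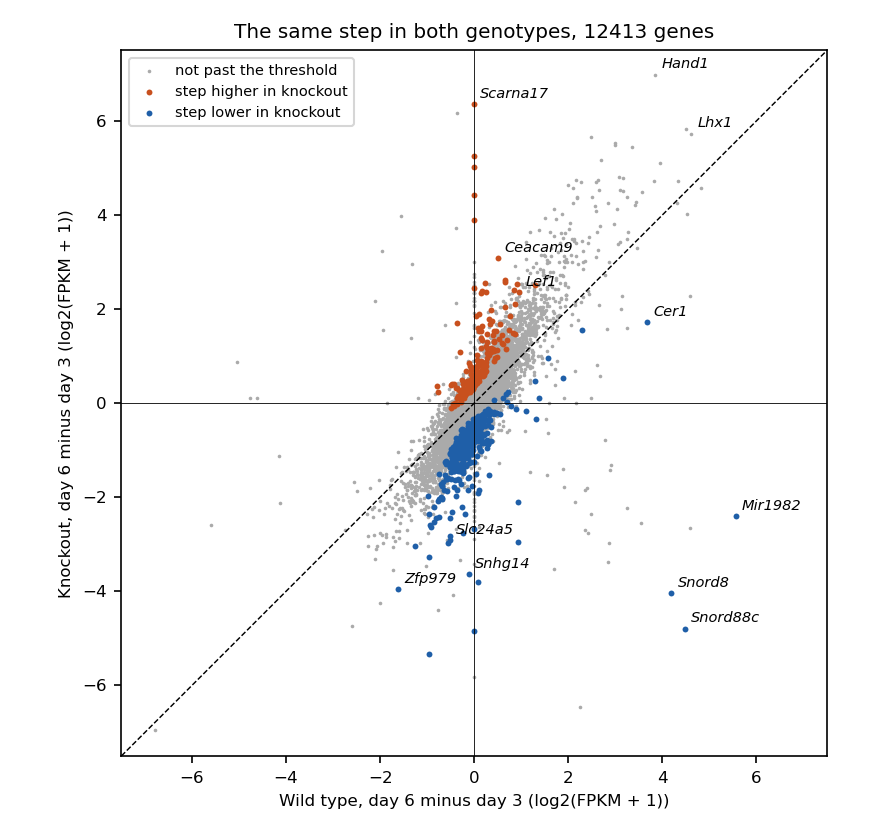
Step from day 3 to day 6 in log2(FPKM + 1) of 12413 genes, in wild type (x axis) and knockout (y axis), with genes past the interaction threshold in colour and a dashed line where the steps are equal. Hand1 and Lhx1 lie above the line without passing, Snhg14 and Slc24a5 fall in the knockout with little change in wild type, and Cer1 rises more in wild type.

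Among lineage genes that passed, Lef1 was at 11.3 and 14.5 FPKM at day 3 and 21.8 and 30.5 FPKM at day 6 in wild type, a smaller rise than in the knockout (difference of the steps 1.40, SE 0.24, adjusted p = 0.0195). Cdh5 was at 1.45 and 1.52 FPKM at day 3 and 0.952 and 2.92 FPKM at day 6 in wild type (2.19, SE 0.40, adjusted p = 0.0242), and both its wild type day 6 libraries lay below both knockout ones. Cer1, a secreted inhibitor of Nodal, BMP and Wnt made by anterior endoderm, went the other way. It was at 0.268 and 0.272 FPKM at day 3 and 13.2 and 17.4 FPKM at day 6 in wild type. In the knockout it was at 0.0852 and 0.0899 FPKM at day 3 and 1.6 and 3.91 FPKM at day 6 (-1.96, SE 0.36, adjusted p = 0.0259). The other endoderm genes did not pass, with 0.38 for Sox17 (adjusted p = 0.700) and -0.85 for Foxa2 (adjusted p = 0.242).

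These 3 calls were not stable. Lef1 was lost without wild type day 3 replicate 2 (adjusted p = 0.0685), knockout day 3 replicate 1 or 2 (0.0666 and 0.0900) or knockout day 6 replicate 2 (0.0617). For Cdh5 the adjusted p was 0.0839 and 0.0803 without wild type day 3 replicates 1 and 2, 0.105 and 0.0858 without those of the knockout, and 0.0793 without knockout day 6 replicate 2. For Cer1 it was 0.092 and 0.0811 without wild type day 3 replicates 1 and 2, 0.102 and 0.0976 without those of the knockout, and 0.0555 with the replicate block.

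Several genes of placental families rose from day 3 to day 6 in the knockout. Of 57 genes of the Prl, Ceacam, Psg and Tpbp families, a class chosen after seeing the data, 11 were tested; 9 rose, 0 fell and 8 had a higher step than in wild type, against 1.48% of all tested genes. Of the 11, 9 were below 1 FPKM at day 3 and passed the minimum only through day 6, so nothing is read from these counts. With no minimum, 38 of the 57 had a value above 0 in the knockout at day 3 or day 6, and 18 had one at day 3. In that fit 21 rose, 1 fell and 16 had a higher step than in wild type. Over all genes of that fit, drawn from the 24458 deposited, 4500 rose, 4258 fell and 186 had a higher step. The class was chosen after the values were seen, so these counts are not read as a result either. Tpbpa (chromosome 13, 60938492 to 60941936 in GRCm38.p6), a marker of the spongiotrophoblast layer of the placenta, was listed at 0 FPKM in both day 3 libraries of each genotype. At day 6 it was at 5.32 and 4.46 FPKM in the knockout and at 0.355 and 0.0284 FPKM in wild type (2.31, SE 0.22, adjusted p = 0.00179). Ceacam9 was likewise listed at 0 at day 3, and at 8.46 and 6.69 FPKM at day 6 in the knockout against 0.916 and 0.0568 FPKM in wild type (2.58, SE 0.35, adjusted p = 0.00841). Prl7d1, a prolactin family hormone gene, was at 4.06 and 4.4 FPKM in the knockout and at 0.261 and 0 FPKM in wild type (2.22, adjusted p = 0.00138). In each the knockout libraries of day 6 lay above all others.

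Since members of these families resemble each other closely, single values are uncertain. With a pseudocount of 0.1 the difference of the steps missed the threshold in 5 of the 8, Ceacam9 (adjusted p = 0.0588), Ceacam15 (0.0658), Prl2a1 (0.114), Prl6a1 (0.0946) and Psg29 (0.0569). The trophoblast markers Cdx2, Elf5 and Ascl2 summed to 12.39 and 21.77 FPKM in knockout and 1.648 and 6.527 FPKM in wild type at day 6. Most of that sum was Cdx2, at 10.2 and 18.95 FPKM in knockout and 0.944 and 4.44 FPKM in wild type, and its difference of the steps did not pass (2.03, SE 0.60, adjusted p = 0.0876). That of Ascl2 did not pass either (0.11, adjusted p = 0.877), and Elf5 was under the minimum. Gjb2, a connexin gene of placenta and other epithelia, was at 0.268 and 0.264 FPKM at day 3 and 5.97 and 7.24 FPKM at day 6 in the knockout. In wild type it was at 0.227 and 0.218 FPKM at day 3 and 0.692 and 1.19 FPKM at day 6 (1.92, SE 0.23, adjusted p = 0.00591).

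**Figure D5:**
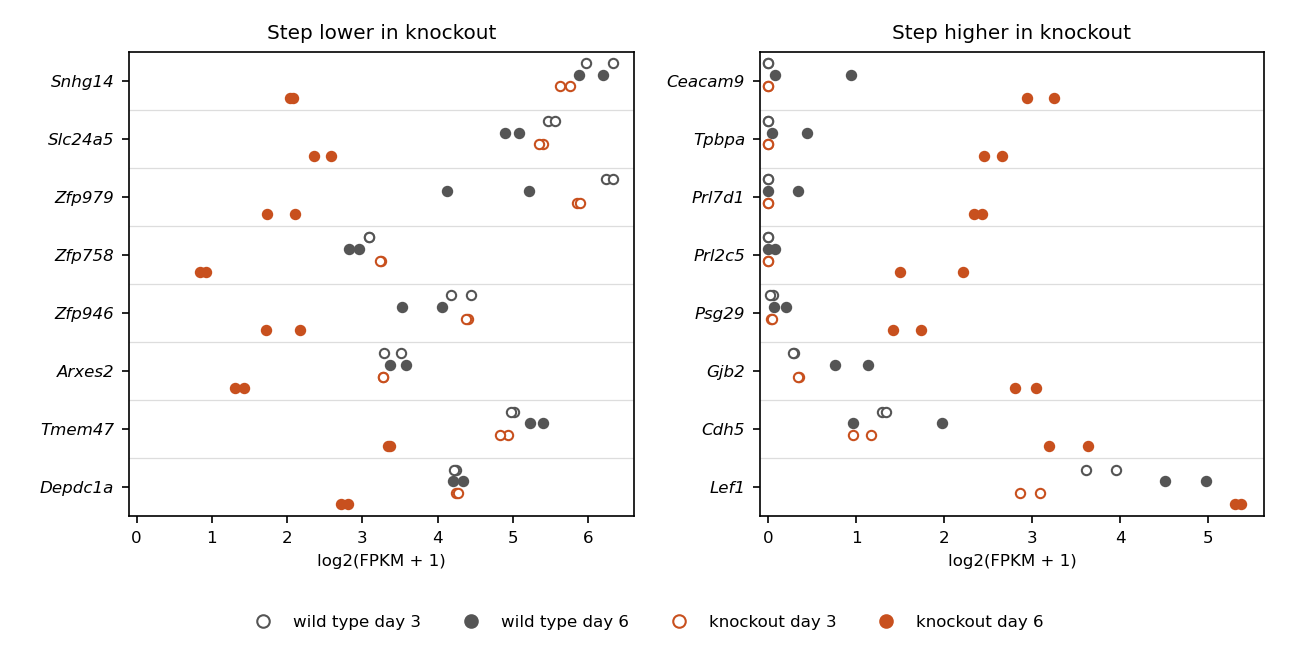
log2(FPKM + 1) of 8 genes with a lower step (left) and 8 with a higher step (right) in the knockout, in the libraries of days 3 and 6 of both genotypes. The filled orange points, knockout day 6, stand alone to the left for Snhg14, Slc24a5 and Zfp758 and alone to the right for Tpbpa, Prl7d1 and Gjb2.

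With small RNAs and pseudogenes left aside, the 5 lowest differences of the step were those of Snhg14, Slc24a5, Zfp979, Mup6 and Zfp758. Snhg14 (chromosome 7, 59272737 to 60450177 in GRCm38.p6), the long non-coding host transcript of an imprinted snoRNA cluster, was at 53.2 and 48.1 FPKM at day 3 and 3.11 and 3.2 FPKM at day 6 in the knockout. In wild type it was at 61.4 and 78.9 FPKM at day 3 and 71.9 and 57.4 FPKM at day 6 (-3.52, SE 0.19, adjusted p = 0.000103). Slc24a5 (chromosome 2, 125068127 to 125088677 in GRCm38.p6), a cation exchanger gene of pigment cells, was at 41 and 39.7 FPKM at day 3 and 4.13 and 4.96 FPKM at day 6 in the knockout. In wild type it was at 43.2 and 45.9 FPKM at day 3 and 32.9 and 28.8 FPKM at day 6 (-2.39, SE 0.15, adjusted p = 0.00014). Zfp758 was at 8.52 and 8.41 FPKM at day 3 and 0.903 and 0.798 FPKM at day 6 in the knockout. In wild type it was at 7.5 and 7.49 FPKM at day 3 and 6.73 and 6.06 FPKM at day 6 (-2.15, SE 0.13, adjusted p = 0.000132). The knockout libraries of day 6 were the only low ones among the 8 in these 3 genes. Snhg14 overlaps Ube3a and Slc24a5 overlaps Myef2 in RefSeq, and the use of strand in counting is not stated, so reads from the partners may not be told apart. Ube3a was at 41.8 and 41.7 FPKM at day 3 and 27.2 and 25.7 FPKM at day 6 and Myef2 at 88.2 and 88.6 FPKM at day 3 and 57.9 and 50.6 FPKM at day 6 in the knockout.

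Arxes2 (-1.98), Tmem47 (-1.84) and the mitotic gene Depdc1a (-1.54), the last 2 chosen after their values were seen, had the same course. Depdc1a stayed at 18 and 17.5 FPKM at day 3 and 17.4 and 19.2 FPKM at day 6 in wild type and was at 18 and 18.2 FPKM at day 3 and 6.00 and 5.54 FPKM at day 6 in the knockout. Of the 319 Zfp genes, 35 had a lower step and 4 a higher one, against 3.29% and 1.48% of all genes. Ccnb1 (-0.55, adjusted p = 0.0348) and Trp53inp1 (-0.90, adjusted p = 0.00905) passed as well. The call of Ccnb1 was lost with the replicate block (adjusted p = 0.0691) and without any single library other than wild type day 6 replicate 2 and knockout day 6 replicate 1, up to 0.127 without knockout day 3 replicate 1. That of Trp53inp1 was lost without wild type day 3 replicate 1 (adjusted p = 0.051) or knockout day 3 replicate 2 (adjusted p = 0.0547).

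For the hypoxia response, no gene named here passed the interaction test. Vegfa was at 4.15 and 4.08 FPKM at day 3 and 14.6 and 31.4 FPKM at day 6 in wild type (difference of the steps -0.06, SE 0.39, adjusted p = 0.946). Pgk1 was at 268 and 291 FPKM at day 3 and 549 and 784 FPKM at day 6 (0.05, SE 0.20, adjusted p = 0.902). Bnip3 was at 25 and 28.6 FPKM at day 3 and 74.2 and 100.5 FPKM at day 6 (-0.07, SE 0.24, adjusted p = 0.886). The same held for T, with a difference of the steps of -0.26 (SE 0.54, adjusted p = 0.79). Medians of the wild type step over the lists were 3.08 for streak, 2.15 for lateral mesoderm, 0.34 for blood and endothelium, 2.31 for definitive endoderm, 1.54 for keratins and trophoblast, and 0.41 for neural genes. The last is the only one of these 6 with a sign opposite to the knockout median, and 0 of its 8 tested members passed the interaction test. The minimum was set on the knockout libraries alone, and only these 8 of the 16 listed neural genes reached it. Zic1, left out, was at 5.59 and 3.34 FPKM at day 6 in wild type and 2.06 and 0.669 FPKM in the knockout. The 0 therefore does not speak for neural genes expressed mainly in wild type.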

How the data were processed

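RNA from knockout and wild type embryoid bodies of days 0, 3 and 6, 2 libraries per group, was sequenced. The deposited values are FPKM per gene, made by the authors with Trim Galore 0.4.1, TopHat2 2.0.13, Cufflinks 2.2.1, HTSeq 0.6.1 and Cuffdiff among the tools on mm10, per the submitters' processing notes. The sources used here do not give the annotation, the use of strand or which tool gave the FPKM. Depth was estimated from the value of 1 read in low genes and ran from 16.3 to 35.1 M reads (M, mega) over the 12 libraries. The precision of small values follows from it.

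Genes with a mean of at least 1 FPKM over the 4 knockout libraries of days 3 and 6 were tested on the scale of log2(FPKM + 1), using limma 3.58.1 under R 4.3.3, a variance trend and one mean per genotype and day over the 12 libraries, two-sided, with Benjamini-Hochberg adjustment over all 12413 genes and a threshold of 0.05. Log2 differences are on that scale and understate the change of low genes. Replicates are separate lines or cultures as far as the labels say, so p-values measure the spread between these samples. The procedure was tested on simulated data. Alternatives were other library sets, a replicate block, pseudocounts of 0.1 and 5, other minimums, quantile scaling, no trend and leaving out each library. Named genes are Cxxc5, the 10 greatest rises and falls, up to 3 rises and 3 falls of each list with members its account turns on, and the 5 highest and 5 lowest differences of the step. The 10 greatest rises and falls and the 10 highest and lowest differences without small RNAs and pseudogenes were added, as were genes named after their values were seen. Named genes are therefore not a sample of all genes. The members and lists were chosen with earlier results of these data known.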

Additional observations from a re-analysis of the deposited data

Results flagged for a closer look

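In 44 of the named genes the step from day 3 to day 6 differed between genotypes by the interaction test (limma, adjusted p under 0.05). Many of them were named because they passed this test or after their values were seen, so the number is not read as a rate. Each value below is the knockout step minus the wild type step in log2(FPKM + 1). Of the 44, 22 kept the call on leaving out each library in turn. The other 22 lost it without at least one library, with a highest adjusted p of 0.0547 for Trp53inp1 to 0.186 for Cer1 over all alternatives: Mir432, Snord88c, Mir1982, Lef1, Cdh5, Cer1, Wnt7b, Ccnb1, Trp53inp1, Nkx2-5, Cdkn1c, Prl2a1, Psg29, Prl2c5, Ube3a, Zfp979, LOC101056073, Gm44505, Hlx, Mup6, Tmsb15b2 and Zfp946.

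In genes of mesoderm, endothelium, endoderm and signalling the difference was 1.40 for Lef1, 2.19 for Cdh5, 1.34 for Nkx2-5, 1.96 for Hlx, -1.96 for Cer1 and -1.30 for Wnt7b. Hlx, a homeobox gene of mesenchyme, was at 0.0674 and 0.114 FPKM at day 3 and 4.17 and 7.68 FPKM at day 6 in the knockout and 0.0605 and 0 FPKM at day 3 and 0.142 and 1.32 FPKM at day 6 in wild type. Nkx2-5, the cardiac homeobox gene, was at 0.248 and 0.147 FPKM at day 3 and 2.44 and 3.28 FPKM at day 6 in the knockout and 0.423 and 0.181 FPKM at day 3 and 0.471 and 0.831 FPKM at day 6 in wild type. In both genes the knockout libraries of day 6 were above all others. Among growth and cell cycle genes it was 1.10 for Cdkn1c, -0.55 for Ccnb1, -0.90 for Trp53inp1 and -1.54 for Depdc1a. Cdkn1c, an imprinted inhibitor of cyclin-dependent kinases, was at 15.3 and 17.8 FPKM at day 3 and 54.3 and 72.3 FPKM at day 6 in the knockout and 12.5 and 10.4 FPKM at day 3 and 17.2 and 23.3 FPKM at day 6 in wild type.

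Placental family genes had differences of 2.58 for Ceacam9, 2.31 for Tpbpa, 2.22 for Prl7d1, 1.82 for Prl2c5, 1.52 for Ceacam15, 1.47 for Prl6a1, 1.45 for Psg29 and 1.41 for Prl2a1. With a pseudocount of 0.1, 5 of these 8 missed the threshold, among them Ceacam9, Ceacam15 and Prl6a1, which had kept it on leaving out each library. Other higher steps were 2.13 for Cabp1, 2.08 for Gm44505, 1.92 for Gjb2 and 1.79 for Psd2. Psd2 is a neighbour of the targeted gene Cxxc5, and whether the change made at Cxxc5 bears on it was not tested. Cabp1, a neuronal calcium-binding protein gene, was at 2.62 and 3.4 FPKM at day 3 and 24.2 and 15.9 FPKM at day 6 in the knockout and 3.76 and 3.75 FPKM at day 3 and 3.82 and 5.58 FPKM at day 6 in wild type, with both knockout libraries of day 6 above all others.

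Lower steps were -3.52 for Snhg14, -2.39 for Slc24a5, -2.34 for Zfp979, -2.30 for Mup6, -2.15 for Zfp758, -1.98 for Arxes2, -1.96 for Gm17066, -1.94 for Tmsb15b2, -1.92 for Zfp946, -1.84 for Tmem47, -1.77 for LOC101056073 and -0.53 for Ube3a, which overlaps Snhg14.

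The small RNA and pseudogene genes, several of which appear to rest on few reads, are given as values only. They were 6.36 for Scarna17, 5.26 for Oaz1-ps, 5.02 for Mir450b, 4.42 for Mir7034, 3.89 for Mir6236, -4.36 for Mir432, -4.84 for Mir1954, -7.96 for Mir1982, -8.23 for Snord8 and -9.26 for Snord88c.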

How the results depend on the processing

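The knockout step gave 2858 to 3913 rises and 2848 to 3793 falls when single libraries were left out, and 719 to 1063 rises and 563 to 874 falls of at least 2-fold. The latter numbered 355 and 296 with a pseudocount of 5, and 509 and 433 with a minimum of 5 FPKM, which tests fewer genes. The difference of the step gave 38 higher and 176 lower genes with the 8 libraries of days 3 and 6 alone, and 362 and 627 after quantile scaling. Without single libraries it gave 18 to 1082 higher and 66 to 1220 lower genes. The cause was not tested, and a group left with 1 library was assumed to vary like the others.

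Same-numbered samples did not deviate together (r across genes 0.073 between knockout days 3 and 6 and -0.005 between those of wild type, though 0.268 between the genotypes at day 6). Labels of the embryoid body libraries tie the number to nothing else. In the ESC libraries of the series each number goes with a separate name, so a pairing by line across days is possible, which the main fit leaves out. With the number as a replicate block, the knockout step gave 3612 rises and 3537 falls, and the difference of the step 47 higher and 173 lower genes. Of 205 named values of the knockout step, 172 kept direction and side of the threshold under 21 alternatives, 31 lost the threshold under at least one and 2 reversed, namely Mir1982 (-4.80 to 0 without single libraries, 0 without knockout day 3 replicate 2) and Eif2s3y (-0.46 to 0.08, with 0.0369 without knockout day 3 replicate 1 and 0.0759 without knockout day 6 replicate 2), neither past the threshold as reported, though Mir1982 was past it without knockout day 3 replicate 1 (-4.80). Of the 44 differences of the step, 19 held under 18 alternatives and 25 lost the threshold under at least one.

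Alternatives chosen after seeing the data were leaving out small RNA and pseudogene rows, with 3788 rises and 3630 falls and 198 higher and 424 lower differences of the step, and leaving out both wild type day 6 libraries, with 3911 rises and 3794 falls. With 2 libraries per group, a fall or rise of a gene at a few reads per library cannot be told from counting error.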
